A study of Mus musculus with 8 samples.

Results

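The 4 ErbB receptor genes (Erbb4, Erbb2, Erbb3 and Egfr) and the 3 neuregulin genes Nrg1, Nrg2 and Nrg3 were followed across the cell types of mouse primary visual cortex (V1) at postnatal day 21. They are 7 of the 26711 genes in the deposited count matrix. They were chosen by name, with earlier results of these data known. The shares of all pairs printed beside the members' calls are therefore a description, and no excess over them is tested. All mice were GRfl/fl, that is, both copies of the glucocorticoid receptor gene Nr3c1 carried loxP sites, and all received at birth an adeno-associated virus (AAV2/5) whose GfaABC1D promoter, which is active in astrocytes, drove EGFP together with either Cre (GR-KO) or the inactive ΔCre (GR-Con). The mice were reared normally (NR) or in darkness (DR), which gave 4 groups, named here by rearing and then vector (NR GR-Con to DR GR-KO). Each group held 2 single-nucleus RNA-seq libraries, 1 from a male and 1 from a female. The study's methods state that nuclei without GFP signal were collected; the vector's EGFP carries a membrane tag (CAAX), and how many of the measured astrocytes had taken up the vector was not tested.

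ErbB receptors are cell surface tyrosine kinases that act in pairs. ErbB4 and ErbB3 bind neuregulins, ErbB2 has no known ligand of its own and serves as a partner, ErbB3 has little kinase activity, and the EGF receptor binds EGF, TGF-alpha and related ligands. In cortex, Nrg1 and Nrg3 from excitatory neurons act on ErbB4 of parvalbumin and other interneurons, where the pathway is known for its part in the formation of excitatory and inhibitory synapses, and ErbB signalling is also known for its part in oligodendrocyte and astrocyte development.

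The matrix held 102330 nuclei in 20 deposited cell types, with 69372 nuclei in 8 excitatory types, 10403 in 5 inhibitory types and 22555 in 7 non-neuronal types. Libraries held 9517 to 15161 nuclei and a total of 168632129 to 288774016 unique molecular identifiers (UMIs, each standing for 1 captured RNA molecule). Some 1220 cell barcodes occurred in 2 or more libraries. Of 60 marker genes, 49 were highest in the type they mark, while in L4 and L6IT no marker was highest in its own type. Nr3c1 in astrocytes stood at 221 and 231 CPM (the gene's UMIs per 1000000 UMIs of that cell type in that library) in NR GR-Con, 268 and 284 in NR GR-KO, 207 and 263 in DR GR-Con and 274 and 275 in DR GR-KO. It was therefore not lower in the GR-KO libraries. Counts from a 3′ kit over the whole gene need not cover the deleted exons, so these values do not check the labels. The counted Cre transcript does: Astro nuclei held 86 and 48 Cre UMIs in NR GR-KO and 57 and 43 in DR GR-KO, and 0 in each of the 4 GR-Con libraries. EGFP was counted in Astro in all 8 libraries, at 8.63 to 23.4 CPM, against 0 to 2 UMIs per library in Oligo, so that the sort had not removed every astrocyte with the vector. L4 also held Cre UMIs in the GR-KO libraries, 361 and 80 in NR and 39 and 62 in DR (7.22, 1.19, 1.34 and 1.41 CPM). In Astro Cre stood at 10.2, 4.14, 10.4 and 5.98 CPM in the same order. Per nucleus, the NR GR-KO male held 0.179 Cre UMIs in L4 and 0.0931 in Astro. The other GR-KO libraries went the other way. The NR GR-KO female held 0.0390 in L4 and 0.0490 in Astro, the DR GR-KO male 0.0236 and 0.0519, and the DR GR-KO female 0.0236 and 0.0316. EGFP in L4 was at 7 to 99 UMIs per library.

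Levels across cell types are descriptions without a test, since the cell types were clustered on these same genes. Erbb4 was an interneuron gene with a second site of high counts in the oligodendrocyte lineage. Its mean level was 20513 CPM ± 1204 in chandelier cells (ChC; SD, n = 3 libraries with at least 10 such nuclei), 14387 ± 481 in Pvalb, 11038 ± 880 in Lamp5 and 9808 ± 619 in Vip interneurons (n = 8). Oligodendrocytes (Oligo, 4680 ± 320) and their precursors (OPC, 3747 ± 397) followed, then Sst interneurons at 2038 ± 380. In the Pvalb nuclei the 8 libraries lay between 13629 and 15098 CPM. The order Pvalb, Lamp5, Vip, Oligo held in 8 of 8 libraries at each step; only between Lamp5 and Vip did the ranges over libraries overlap. Oligo exceeded OPC in 7 of 8, with overlapping ranges, and OPC exceeded Sst in 8 of 8. Astrocytes (Astro, 80.2 ± 29.1), microglia (Micro, 88.8 ± 45.3, n = 5) and the 8 excitatory types (15.0 in L6b to 29.1 in L5PT) were far lower, and neighbours in that low range overlapped. Of all Erbb4 UMIs, 84.0% were in inhibitory, 14.7% in non-neuronal and 1.38% in excitatory nuclei.

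The other receptors were highest in oligodendrocytes (Erbb3), in astrocytes (Erbb2), or in particular interneurons, astrocytes and vascular leptomeningeal cells (Egfr). Erbb3, which needs a partner receptor to signal, was an oligodendrocyte-lineage gene at 73.0 CPM ± 16.0 in Oligo and 20.5 ± 5.93 in OPC, higher in Oligo in 8 of 8 libraries, and at 2.85 or below in every other type. At least 1 Erbb3 UMI was seen in 39.8% of Oligo nuclei and 11.8% of OPC, against 0.316% of Astro nuclei and 0.259% of Micro. Erbb2 was scarce, with 602 UMIs in all nuclei together. It was highest in Astro (5.34 CPM ± 1.11, range 3.70 to 6.96, n = 8) and overlapped in range with VLMC (vascular leptomeningeal cells, 4.93 ± 2.52, n = 7), above which it lay in 4 of 7 libraries. Astro held 344 Erbb2 UMIs over all libraries, against 12 in VLMC, 11 in Endo and 4 in SMC-Peri. The vascular values therefore lie near the floor. Egfr was highest in Lamp5 interneurons (731 ± 94.6), then Astro (505 ± 85.5), Vip (406 ± 34.6) and VLMC (307 ± 140). Egfr UMIs were present in 97.5% of Lamp5 nuclei, 84.2% of Astro and 70.1% of Vip, against 2.54% of Micro and 2.23% of Oligo. Among excitatory types Egfr stood out in L6CT, the corticothalamic cells of layer 6, at 17.8 ± 4.19 CPM and with a UMI in 17.9% of nuclei, while the other excitatory types had 0.676 to 2.47 CPM. L4, at a similar median depth (18882 UMIs against 17934), had a UMI in 2.06% of nuclei.

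By CPM, Nrg1 and Nrg3 were highest in excitatory types and Nrg2 in Lamp5 interneurons, and Nrg1 and Nrg3 differed in layer. Nrg1 was highest in L4 (7371 CPM ± 1037), then L6b (5950 ± 529), L5IT (4531 ± 533), L2/3 (4193 ± 303), L6IT (3958 ± 479) and L6CT (3398 ± 367), and L4 exceeded L6b in 8 of 8 libraries. L5PT (1907 ± 375) and L5NP (1394 ± 157) stood lower among excitatory types, and Nrg1 was lowest in ChC at 179 ± 36.1 (n = 3). In the few vascular nuclei it was 2192 ± 1756 in SMC-Peri (n = 6), 1900 ± 318 in Endo (n = 7) and 1678 ± 1126 in VLMC (n = 7), but few nuclei held these counts: 8 of 180 SMC-Peri, 18 of 399 Endo and 11 of 360 VLMC nuclei held 50% of the type's Nrg1 UMIs, and without nuclei of 10 or more the mean per nucleus went from 20.4 to 1.01, from 15.8 to 0.787 and from 15.5 to 0.820. OPC were at 1305 ± 206. Nrg3 was highest in other excitatory types, with L5NP at 9812 ± 202, L6b at 9099 ± 292 and L6CT at 7721 ± 192, each above the next in 8 of 8 libraries. It was high in all neurons, down to 4129 ± 160 in Lamp5, and lowest in Micro (444 ± 160, n = 5), Oligo (276 ± 95.7) and Astro (242 ± 91.2). The 3 vascular types had means of 2232 to 3214, of which nuclei with 10 or more Nrg3 UMIs (37 of 180 SMC-Peri, 67 of 399 Endo, 47 of 360 VLMC) held 94.2 to 95.7%. Nrg2 was highest in Lamp5 (385 ± 26.7) and ChC (343 ± 57.9, n = 3), and the 8 excitatory types lay between 109 in L5PT and 237 in L5NP. Excitatory nuclei held 96.3% of all Nrg1 UMIs, 85.8% of Nrg2 and 89.4% of Nrg3. They were also 69372 of 102330 nuclei, and their share of the UMIs of all genes is not given. These shares alone therefore do not show enrichment. In the 2 NR GR-Con libraries alone, the highest type was the same for 6 of the 7 genes; for Erbb4 it was Pvalb, as neither library had 10 ChC nuclei.

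**Figure D1:**
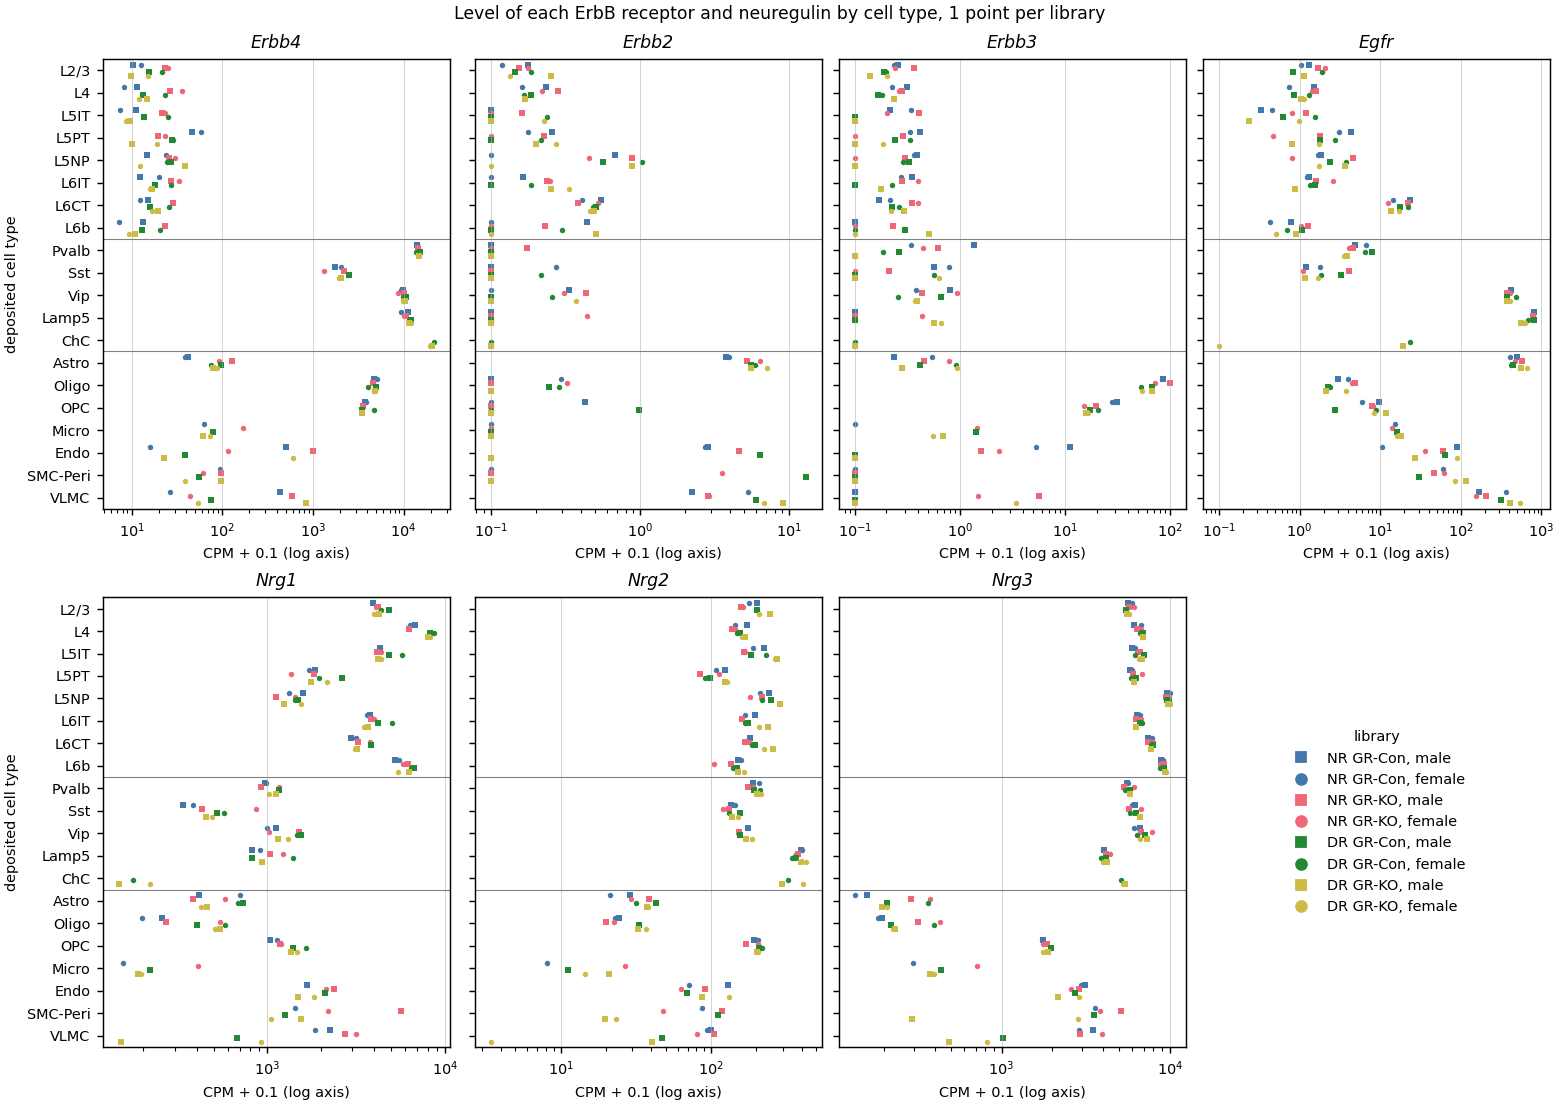
Level of each gene by deposited cell type, 1 panel per gene, on a log axis of CPM to which a small constant was added so that libraries at 0 appear at the left edge; each point is 1 library, coloured by group, with squares for male and circles for female. Erbb4 separates interneurons and the oligodendrocyte lineage (means of 2038 CPM and above) from excitatory types (29.1 and below), while Nrg1 and Nrg3 are highest in excitatory types.

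The genes differ greatly in size (GRCm38, gene models of GENCODE vM21). Erbb4 (chr1:68032186-69108059, minus strand) spans 1076 kb, Nrg1 (chr8:31814551-32884029, minus) 1069 kb and Nrg3 (chr14:38368952-39473088, minus) 1104 kb, whereas Erbb2 (chr11:98412470-98437716, plus) spans 25.2 kb and Erbb3 (chr10:128567523-128589652, minus) 22.1 kb, with Egfr (chr11:16752203-16918158, plus) at 166 kb and Nrg2 (chr18:36017652-36197380, minus) at 179.7 kb. Nuclear RNA holds many unspliced transcripts, so levels were not compared between genes. Erbb4 overlaps 1 counted feature on its own strand, Gm16076, whose reads the counting could have split from it.

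The genes whose levels over the 20 types were most like each member were found by Pearson's r of log2(mean CPM + 1) among 13626 genes, given without a p since cell types share libraries. For Erbb4 they were Dusp10 (r = 0.95), Zfp536 (0.94) and Gad1 (0.92), the last of which makes GABA. Erbb3 was closest to Fa2h (0.99), Myrf (0.98) and Sox10 (0.97), genes of myelin synthesis and of oligodendrocyte identity. Nrg1 was closest to Npas4 (0.91) and Homer1 (0.90), both known as genes induced by neuronal activity, and to Gm26652 (0.89). Egfr was closest to Egfros (0.95), Fmo1 (0.88) and Frem1 (0.88), Nrg3 to Nrg3os, Myt1l and Gm20642 (each 0.99), Nrg2 to Cadps (0.94), Scg5 (0.93) and Sh3rf3 (0.92), and Erbb2 to Fkbp10 (0.98), Heph (0.97) and Echdc3 (0.95). Egfros, Nrg3os and Gm20642 lie on the opposite strand of the member they resemble.

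Erbb4 and Nrg3 were the members called between genotypes in NR astrocytes. Their promoters, from 250 bases before to 50 bases after the start, were read from RefSeq for GRCm38.p6 on the gene's strand; 4 of the 7 members were in that table. The Erbb4 window is chr1:69108010-69108309 (minus strand) and the Nrg3 window chr14:39473039-39473338 (minus strand).
Erbb4: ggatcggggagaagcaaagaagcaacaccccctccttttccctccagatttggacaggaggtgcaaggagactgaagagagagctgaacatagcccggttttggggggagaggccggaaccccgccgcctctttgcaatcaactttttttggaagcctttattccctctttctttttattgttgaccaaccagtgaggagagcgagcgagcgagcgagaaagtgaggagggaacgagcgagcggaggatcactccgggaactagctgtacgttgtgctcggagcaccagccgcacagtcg
Nrg3: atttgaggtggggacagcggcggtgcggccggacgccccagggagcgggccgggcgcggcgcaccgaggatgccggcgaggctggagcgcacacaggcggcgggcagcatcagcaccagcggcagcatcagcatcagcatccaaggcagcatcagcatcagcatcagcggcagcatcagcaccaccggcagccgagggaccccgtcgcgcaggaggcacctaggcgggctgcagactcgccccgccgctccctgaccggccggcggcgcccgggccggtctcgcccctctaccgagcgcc
No letters are in capitals because neither window, nor that of Egfr or Erbb2, held the glucocorticoid receptor half-site AGAACA on either strand (TGTTCT on the other) or the full element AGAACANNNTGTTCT. Of 32851 promoters of that length, 19.0% held the half-site and 0.00913% the full element. The Nrg3 window was 74.3% G and C with 36 CG pairs, the Erbb4 window 55.3% with 17. The absence of these letters says nothing about binding elsewhere.

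The nuclei that carried the Erbb4 UMIs of excitatory types were counted next. Excitatory nuclei held 30629 Erbb4 UMIs. These came from 18887 of 69372 nuclei (27.2%), of which 14254 had a single UMI, 3422 had 2 and 1079 had 3 to 9. The remaining 132 nuclei had 10 or more and held 18.7% of the UMIs; 42 of these 132 also had 2 or more UMIs of Gad1 and Gad2, the GABA-synthesis genes, against 0.918% of all excitatory nuclei. By type, 26.3% (L5NP) to 30.3% (L6b) of nuclei had a UMI. The share in Micro, a type assumed without a test to lack the gene, was 21.8% at a median depth of 2448 UMIs per nucleus. That in Astro was 29.3% at 6107, against a median of 20340 in excitatory nuclei. When each nucleus was thinned to 2000 UMIs, 3.39% of excitatory nuclei had an Erbb4 UMI (1.82 to 5.80% by library), against 15.5% of Micro (11.4 to 27.2%, 5 libraries), 12.2% of Astro (6.54 to 16.8%), 98.9% of Oligo and 100% of Pvalb. Thinning removes most UMIs of the deeper excitatory nuclei and few of those of microglia, so that this order does not separate free RNA from low expression. Per nucleus and unthinned, without the nuclei of 10 or more, the mean was 0.360 Erbb4 UMIs in excitatory, 0.474 in Astro and 0.279 in Micro nuclei. Low Erbb4 counts in excitatory nuclei are not read as expression, and the part of free RNA in them was not tested. Without nuclei of 10 or more, the excitatory mean was above that of Micro in each library with enough Micro nuclei. The excitatory nuclei were also deeper in each. For Astro the values differed by library, as given with the libraries, and the part of free RNA was not tested. At least 1 UMI was found in 100% of Pvalb, Vip, Lamp5 and ChC nuclei and in 99.9% of Oligo and of OPC. Sst was mixed: 86.8% had a UMI, and the 1281 of 2869 nuclei with 10 or more (44.6%, 37.8 to 51.3% by library) held 95.6% of the UMIs.

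**Figure D2:**
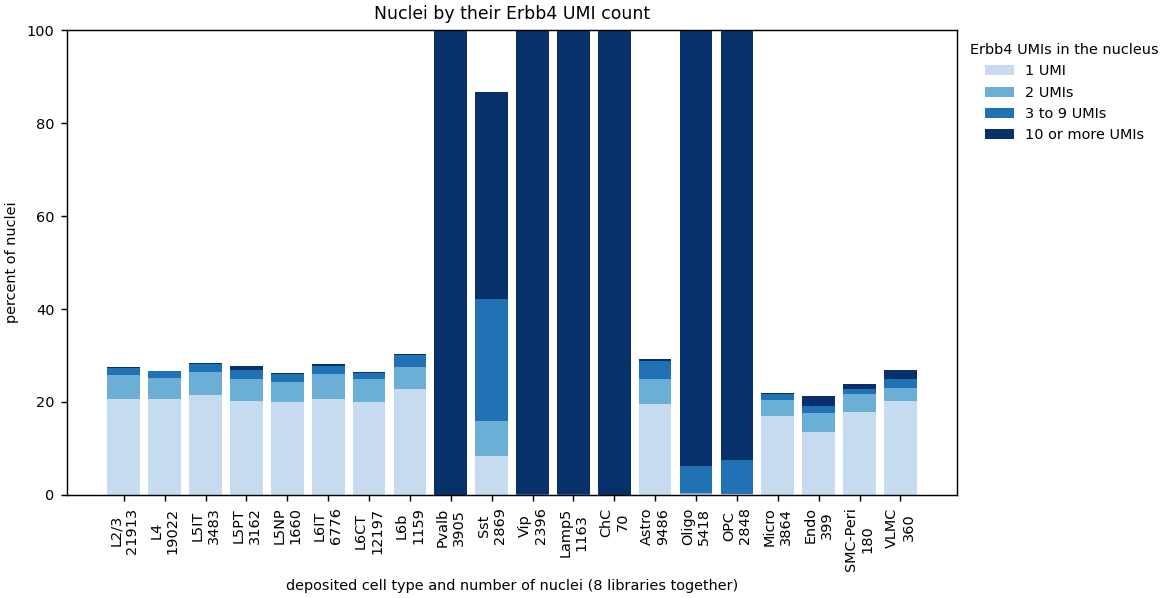
Percent of nuclei of each deposited cell type, 8 libraries together, that held 1, 2, 3 to 9, or 10 or more Erbb4 UMIs (stacked bars; the number of nuclei stands under each type). Pvalb, Vip, Lamp5 and ChC bars are almost wholly nuclei with 10 or more, Sst is split (44.6% with 10 or more), and the excitatory types and Micro consist mostly of nuclei with no UMI or 1.

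The Erbb4 share moved by library and not only by group, and it moved in excitatory, astrocyte and microglial nuclei alike. In NR GR-Con, 18.6% (male) and 12.7% (female) of excitatory nuclei and 20.2% and 13.9% of Astro had a UMI. In NR GR-KO the values were 43.7% and 54.9% of excitatory nuclei and 49.4% and 54.7% of Astro. DR GR-Con differed within the pair, at 21.9% and 38.7% of excitatory nuclei and 26.3% and 40.2% of Astro. DR GR-KO gave 16.8% in both for excitatory nuclei and 21.4% and 21.2% for Astro. Micro were at 13.1% in the NR GR-Con female and 52.4% in the NR GR-KO female. Without nuclei of 10 or more UMIs, the mean count per nucleus in the NR GR-Con female was 0.151 in excitatory, 0.185 in Astro and 0.150 in Micro nuclei, and in the NR GR-KO female 0.855, 0.945 and 0.765. In the other 3 libraries with enough Micro nuclei, Astro stood further above Micro: the DR GR-Con male had 0.265 in excitatory, 0.461 in Astro and 0.202 in Micro nuclei, the DR GR-KO male 0.199, 0.354 and 0.140, and the DR GR-KO female 0.197, 0.373 and 0.170. Nuclei with 3 to 9 UMIs were also more frequent in Astro there, at 78 of 1794 in the DR GR-Con male against 5 of 885 Micro. The NR GR-KO libraries were also deeper, with excitatory medians of 25216 and 34310 UMIs against 16939 to 21657 in the other 6. After thinning to 5000 UMIs, which left out 222 shallower nuclei, the excitatory share was 5.57% and 4.16% in NR GR-Con, 11.6% and 13.0% in NR GR-KO, 6.35% and 11.2% in DR GR-Con and 5.50% and 5.55% in DR GR-KO. Over 4 libraries against 4, GR-KO was at 8.93% ± 3.97 and GR-Con at 6.82% ± 3.06, a difference of 2.10 percentage points (exact permutation test, two-sided, p = 0.4, adjusted over 2 tests 0.657). DR was at 7.15% ± 2.73 and NR at 8.60% ± 4.38, a difference of -1.45 points (exact permutation p = 0.657, adjusted 0.657; the smallest p this design allows is 0.0286). Both differences were smaller than these SDs, which also hold the spread from the other factor. Within GR-KO, for example, NR was at 11.6% and 13.0% and DR at 5.50% and 5.55%. The permutation did not hold the other factor fixed, so its p-values do not set the differences against spread within groups alone. Without the NR GR-KO female the rearing difference turned its sign.

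**Figure D3:**
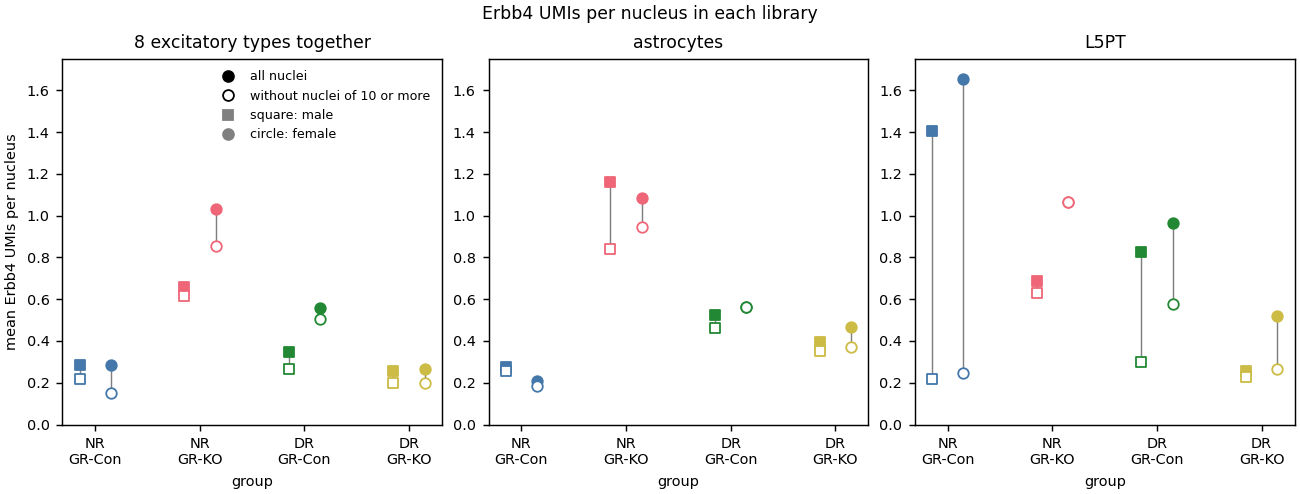
Mean Erbb4 UMIs per nucleus in each library for the 8 excitatory types together, for astrocytes and for L5PT; filled symbols are all nuclei, open symbols leave out nuclei with 10 or more Erbb4 UMIs, squares are male and circles female. Both NR GR-KO libraries are highest in excitatory nuclei and in astrocytes, and in L5PT the high values of NR GR-Con (1.41 and 1.65) drop to 0.216 and 0.248 once those few nuclei are left out.

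To ask whether loss of the receptor in astrocytes goes with other ErbB and neuregulin levels, GR-KO and GR-Con were compared in NR with edgeR's likelihood ratio test on UMIs summed per library and cell type. A cell type entered where each library had at least 10 of its nuclei, and a gene was called at a Benjamini-Hochberg adjusted p under 0.05 within its type. Groups of 2 libraries are small, and the stricter quasi-likelihood F-test of edgeR is given for the members' calls. In 17 types, 8 of 87 member and type pairs passed, 7 of them with the higher level in GR-KO and 1 with the lower, against 0.804% of all gene and type pairs. The quasi-likelihood test called 2 of the 87, against 0.361% of all pairs. DESeq2 called 8, and 17 had an unadjusted p under 0.05. For DESeq2 and for unadjusted p the share of all pairs is not given, here or in the comparisons below. Those counts are therefore not a result about the members. The median log2 fold change was 0.02 over the 87 pairs and 0.00 over all genes.

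Erbb4 and Nrg3 counts in astrocyte nuclei rose. Erbb4 in Astro was 42.2 and 38.4 CPM in NR GR-Con and 127 and 91.9 in NR GR-KO, with no overlap. The log2 fold change was 1.37 ± 0.19 (SE; edgeR adjusted p = 4.17e-11, quasi-likelihood 0.00212). Nrg3, the neuregulin whose counts were highest in neurons, was 159 and 134 CPM in NR GR-Con and 289 and 376 in NR GR-KO, a log2 fold change of 1.12 ± 0.19 (edgeR adjusted p = 2.58e-07, quasi-likelihood 0.00352). In Astro 7.11% of all genes tested were called. Nrg3 in Oligo also rose, from 196 and 184 to 318 and 433 CPM (log2 fold change 0.94 ± 0.19, edgeR adjusted p = 0.000349, quasi-likelihood 0.0572), where 1.53% of genes were called. Other neuronal genes moved with them. The summed level of 10 neuronal genes listed as markers of other cells was 821 to 971 CPM in NR GR-Con Astro and 1470 to 1583 in NR GR-KO, and 5 of the 10 were called higher; in Oligo the sum went from 465 to 537 up to 940 to 1291, again with 5 of 10 higher. In the single microglial library of each NR group with enough nuclei, Nrg3 was 296 CPM in GR-Con and 714 in GR-KO, and Erbb4 62.2 and 168.7 CPM. Per nucleus, Nrg3 in those 2 libraries was at 0.714 and 3.69 UMIs in Micro and 0.735 and 4.45 in Astro. The part of neuronal RNA in the astrocyte and oligodendrocyte values was not tested. Leaving out nuclei with markers of other cells kept Erbb4 in Astro at 1.42 and Nrg3 at 1.17, while a fit over both rearings gave 0.67 (edgeR adjusted p = 0.166) and 0.32 (0.801). With each library left out in turn, where the lone library of an arm is assumed to vary like the other arm, both astrocyte calls held, and Nrg3 in Oligo lost its call without the NR GR-Con female (0.92, edgeR adjusted p = 0.123) or male (0.97, 0.0508).

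In excitatory types Erbb4 was called higher in L4 (9.81 CPM ± 2.21 in NR GR-Con, 31.0 ± 6.67 in NR GR-KO; log2 fold change 1.66 ± 0.24, edgeR adjusted p = 9.77e-08), L5IT (9.17 against 22.5; 1.31 ± 0.24), L6CT (13.8 against 28.7; 1.05 ± 0.16) and L2/3 (11.5 against 24.1; 1.04 ± 0.18). None of the 4 passed the quasi-likelihood test, at adjusted p of 0.425 to 0.898, and over both rearings they were at 0.12 to 0.62 and not called. L5IT and L6CT lost their call without the NR GR-Con female (1.04, edgeR adjusted p = 0.418, and 0.92, 0.0861) and L2/3 without the NR GR-Con male (0.89, 0.452) and in 1 fit of all 8 libraries (1.04, 0.0581). Interneuron marker sums were 22.7 to 28.1 CPM in NR GR-Con and 41.6 to 46.3 in NR GR-KO in L2/3, and 25.9 to 33.1 and 48.8 to 53.2 in L4, with 2 of 11 genes called higher in each; in L5IT (39.7 to 63.2 and 57.0 to 57.6, 1 of 8 higher) and L6CT (93.5 to 132 and 109 to 141, 0 of 11) the sums overlapped. Their part in the calls was not tested. These are low counts that are not read as expression, and the part of free RNA in them was not tested. L5PT went the other way, from 46.6 and 57.7 CPM in NR GR-Con to 19.7 and 23.3 in NR GR-KO (log2 fold change -1.32 ± 0.20, edgeR adjusted p = 1.21e-07, quasi-likelihood 0.186). This value rested on a handful of nuclei: 12 of 3162 L5PT nuclei held 50% of the type's 2894 Erbb4 UMIs. In the NR GR-Con male 9 nuclei with 10 or more UMIs held 85.0% of the count and in the female 7 held 85.3%, against 1 such nucleus in the NR GR-KO male and 0 of 59 L5PT nuclei in the female. With nuclei that carried markers of other cells left out, the log2 fold change was 0.12 (edgeR adjusted p = 1), and with at most 5 UMIs counted per nucleus it was 0.87.

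Among the types with high Erbb4, Pvalb, Lamp5, Vip, Oligo, OPC and Sst were tested and not called in any of the 5 comparisons within and between genotypes and rearings; ChC, with 5 to 14 nuclei per library, was not tested. In Pvalb the log2 fold change between genotypes in NR was 0.02 (95% interval -0.20 to 0.25; 14229 and 13974 CPM in NR GR-Con, 14495 and 14321 in NR GR-KO, which did not overlap) and in DR 0.05 (-0.19 to 0.28). In Lamp5 it was 0.03 (-0.26 to 0.32) in NR, in Vip -0.04 (-0.39 to 0.30), in Sst -0.09 (-0.56 to 0.38), in Oligo -0.13 (-0.49 to 0.22) and in OPC -0.10 (-0.40 to 0.19). None of these missed thresholds shows equal levels; the intervals give the sizes of change that the libraries leave possible. Neither Egfr nor the less abundant receptors were called between genotypes in NR. The calls and missed thresholds here come from the fit without sex as a term. That term added calls, which the last section counts without naming the members. Egfr in Astro was 501 and 412 CPM in NR GR-Con and 573 and 469 in NR GR-KO (log2 fold change 0.13, 95% interval -0.22 to 0.47). Erbb2 in Astro was 3.70 and 3.88 against 5.10 and 6.30 CPM, with no overlap (0.54, -0.03 to 1.11; edgeR adjusted p = 0.371). Erbb3 in OPC was 31.1 and 28.0 against 19.6 and 15.1 CPM, likewise without overlap (-0.79, -1.26 to -0.32). It missed the threshold at an edgeR adjusted p of 0.169. The share of all genes that lay without overlap between groups this small is not given, here or below. Lack of overlap in pairs that were not called is therefore not read as a result. Nrg2 was not called in any type, and its change was positive in 1 of 17 types. The types share the same libraries, so counts of types by sign, here and below, are not independent. The share of all genes with such signs is not given, so these counts are not a result.

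**Figure D4:**
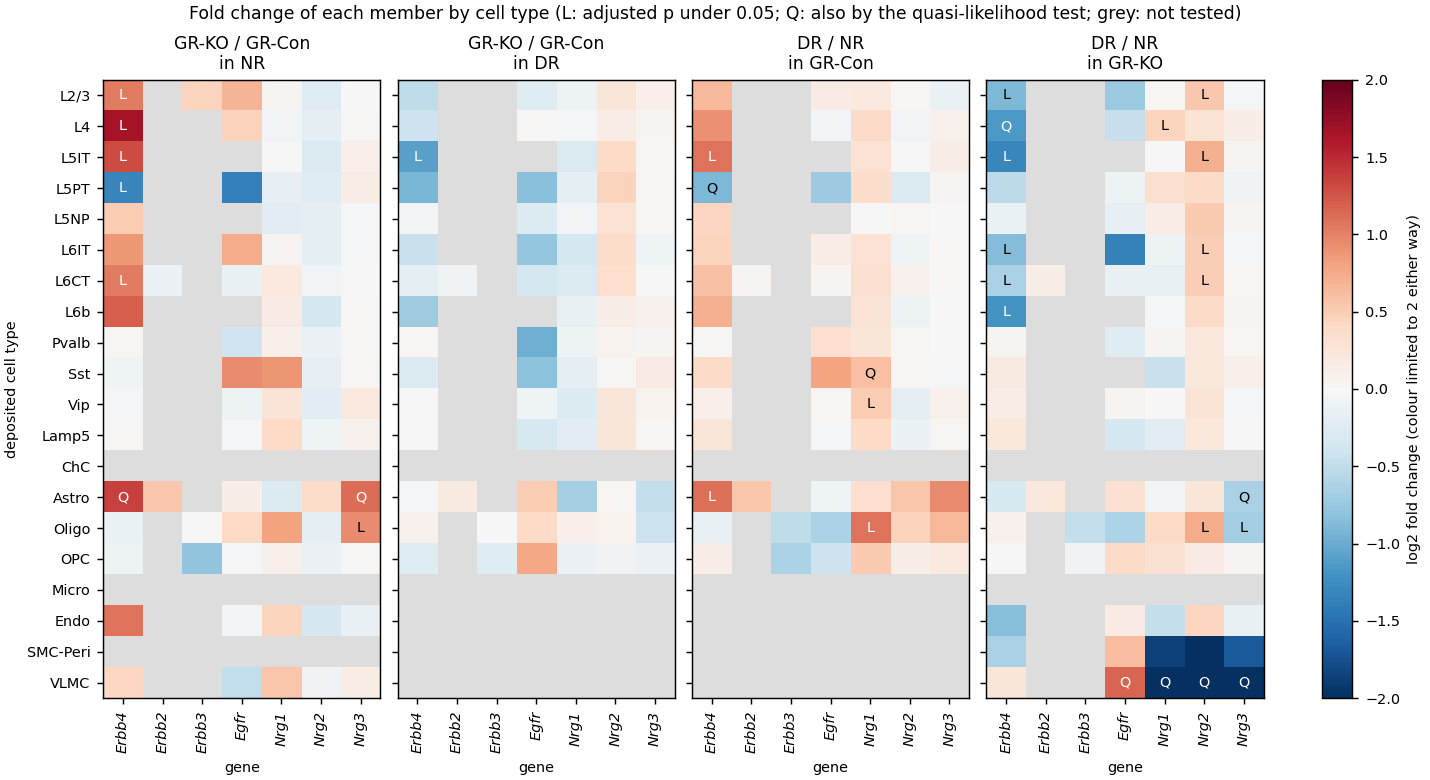
Log2 fold change of each gene in each deposited cell type between vectors (GR-KO minus GR-Con) within each rearing and between rearings (DR minus NR) within each vector (red higher, blue lower, grey not tested; colours limited to 2 either way). L marks a call by edgeR's likelihood ratio test and Q one that the quasi-likelihood test also made; Erbb4 carries 16 of the 33 calls, and Erbb4 in Pvalb, Vip, Lamp5, Oligo and OPC carries none.

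Between genotypes in DR, 1 of 77 pairs over 15 types was called, against 0.513% of all pairs; the quasi-likelihood test called 0, DESeq2 called 1, another pair, and 15 had an unadjusted p under 0.05. The edgeR call was Erbb4 in L5IT, at 13.7 and 25.4 CPM in DR GR-Con and 9.60 and 8.60 in DR GR-KO (log2 fold change -1.09 ± 0.31, edgeR adjusted p = 0.0416, quasi-likelihood 0.291). It lost the call without the DR GR-Con female (-0.61), the DR GR-KO female (-1.02) or the DR GR-KO male (-1.15), and by DESeq2 (-1.09, adjusted p = 0.0926), with UMIs capped at 5 per nucleus (-0.93, edgeR adjusted p = 0.0846) and in 1 fit of all 8 libraries (-1.09, 0.0608). Over both rearings the change turned its direction, to 0.12. The DESeq2 call was Nrg1 in Astro, at 730 and 683 CPM in DR GR-Con and 454 and 420 in DR GR-KO (log2 fold change -0.67, DESeq2 adjusted p = 0.0446, edgeR 0.0712). Egfr in Astro was at 446 and 421 CPM in DR GR-Con and 559 and 658 in DR GR-KO. The groups did not overlap, which is again not read as a result. The pair was not called (0.51, 95% interval 0.10 to 0.92, edgeR adjusted p = 0.458). Nrg2 was positive in 14 of 15 types and called in none. The difference between the genotype effects in NR and in DR was tested as an interaction over all 8 libraries. Of 79 pairs, 6 were called, all positive, against 0.181% of all pairs: Erbb4 in L5IT (2.39 ± 0.43 on the log2 scale), L4 (2.07 ± 0.41), L2/3 (1.54 ± 0.37) and Astro (1.40 ± 0.30), and Nrg3 in Astro (1.60 ± 0.37) and Oligo (1.36 ± 0.36). The quasi-likelihood test called 0 of the 79, at adjusted p of 0.214 to 0.465 for these 6, DESeq2 called 7, and 25 had an unadjusted p under 0.05. With each library left out in turn, Erbb4 in L5IT kept its call, and Erbb4 in L4 lost it without the DR GR-KO female (1.95). Erbb4 in Astro lost it without the DR GR-KO male, NR GR-Con female or NR GR-KO male (1.17 to 1.35), and Nrg3 in Astro without either DR GR-KO library or the NR GR-Con or NR GR-KO female (1.37 to 1.68). Erbb4 in L2/3 lost it in the absence of the DR GR-Con female, DR GR-KO male, NR GR-KO male or either NR GR-Con library (1.25 to 1.71), and Nrg3 in Oligo kept it without the DR GR-Con or NR GR-KO male and lost it without any other library (0.89 to 1.38). Nrg3 in Oligo also lost it with UMIs capped at 5 per nucleus (0.96, edgeR adjusted p = 0.148) and with nuclei that carried other markers left out (1.22, 0.0826). Marker genes of other neurons differed between the same libraries: summed over 11 interneuron genes, L4 was at 25.9 to 33.1 CPM in NR GR-Con, 48.8 to 53.2 in NR GR-KO, 39.6 to 48.3 in DR GR-Con and 33.1 to 40.1 in DR GR-KO. L2/3 was at 22.7 to 28.1, 41.6 to 46.3, 38.3 to 44.9 and 27.5 CPM in the same order of groups, and L5IT at 39.7 to 63.2, 57.0 to 57.6, 38.4 to 53.6 and 31.7 to 35.5. The sum of 10 neuronal genes was 821 to 971, 1470 to 1583, 858 to 1238 and 904 to 949 CPM in Astro, and 465 to 537, 940 to 1291, 523 to 806 and 536 to 537 in Oligo. The part of these markers in the calls was not tested.

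Dark and normal rearing were compared within each genotype, and these comparisons share libraries with those above. In GR-Con, 6 of 76 pairs over 15 types were called, against 2.25% of all pairs (quasi-likelihood 2 of 76, against 0.495%; DESeq2 10; 22 at an unadjusted p under 0.05). Nrg1, the neuregulin highest in L4, rose with dark rearing in 3 types. It was called in Oligo (255 and 196 CPM in NR, 400 and 575 in DR; log2 fold change 1.08 ± 0.24, edgeR adjusted p = 0.00438, quasi-likelihood 0.251), Sst (333 and 378 against 520 and 568; 0.60 ± 0.14, edgeR adjusted p = 0.00394, quasi-likelihood 0.0495) and Vip (1116 and 991 against 1543 and 1471; 0.52 ± 0.14, edgeR adjusted p = 0.0328, quasi-likelihood 0.0985). Its change was positive in 15 of 15 types in GR-Con and in 8 of 18 in GR-KO, where Sst was at 427 and 866 CPM in NR and 453 and 489 in DR. These types share libraries and are not replicates. The Sst and Vip calls in GR-Con were lost with UMIs capped at 5 per nucleus (0.33, edgeR adjusted p = 0.3, and 0.31, 0.424), in 1 fit of all 8 libraries (0.60, 0.662, and 0.52, 0.505) and over both genotypes (0.07, 0.957, and 0.25, 0.527). Nuclei with 10 or more held 77.3% of the Nrg1 UMIs in Sst and 92.7% in Vip. The cap therefore cuts into most of the count and cannot judge these calls. The Oligo neuronal marker sum was 465 to 537 CPM in NR GR-Con and 523 to 806 in DR GR-Con, with 1 of 10 genes called higher and 1 lower, and its part in the Nrg1 call was not tested. The Oligo call was lost without either NR GR-Con library (0.92 and 1.25), the Sst call without the DR GR-Con female (0.55) or NR GR-Con male (0.52), and the Vip call without the DR GR-Con male or either NR GR-Con library (0.44 to 0.60). Erbb4 was called higher in DR in Astro (40.3 CPM ± 2.68 in NR against 86.9 ± 15.8; quasi-likelihood adjusted p = 0.867) and L5IT (9.17 against 19.6; 0.115) and lower in L5PT (52.2 against 28.2; 0.0389). The Astro call was lost without either NR GR-Con library (1.05 and 1.14). That in L5IT was lost without either female (0.61 and 0.83) and with UMIs capped at 5 (0.88, edgeR adjusted p = 0.0609). Over both genotypes Astro was at 0.39 and not called, and L5IT turned its direction, to -0.11. For L5PT, limiting each nucleus to 5 UMIs turned the log2 fold change of -0.90 into 0.39, and without nuclei that carried markers of other cells it was -0.37 (edgeR adjusted p = 0.739). The median over the 76 pairs was 0.10 on the log2 scale, against 0.00 over all genes.

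Among GR-KO libraries, 18 of 91 pairs over 18 types were called between DR and NR, 7 higher and 11 lower, against 3.66% of all pairs. The quasi-likelihood test called 7, against 0.857% of all pairs, DESeq2 15, and 27 had an unadjusted p under 0.05; the median over the pairs was 0.01, against -0.01 over all genes. Nrg2 rose in 5 types, and its change was positive in 16 of 18. In L5IT it was 166 and 169 CPM in NR GR-KO and 277 and 266 in DR GR-KO, without overlap (log2 fold change 0.71 ± 0.16, edgeR adjusted p = 0.00174, quasi-likelihood 0.121). The other 4 were Oligo (0.74), L2/3 (0.55), L6IT (0.50) and L6CT (0.49), with quasi-likelihood adjusted p of 0.0605 to 0.0718. The L5IT call was lost without either DR GR-KO library (0.70 and 0.72), Oligo without the DR GR-KO female (0.63), L6IT without either DR GR-KO library or the NR GR-KO female (0.43 to 0.57), and L2/3 (0.44 to 0.65) and L6CT (0.43 to 0.55) without any one of the 4 libraries. Over both genotypes L5IT, L2/3, L6IT and L6CT were at 0.20 to 0.35 and not called, and DESeq2 did not call Oligo (adjusted p = 0.0597). Nrg1 rose in L4, from 6282 and 6321 CPM to 8058 and 8286 (0.44 ± 0.14, edgeR adjusted p = 0.0463, quasi-likelihood 0.076). That call too was lost without any one of the 4 libraries (0.39 to 0.49), and with no filter on low counts (0.43, edgeR adjusted p = 0.0823). Erbb4 fell in 6 excitatory types, by 1.30 in L5IT, 1.20 in L6b, 1.14 in L4, 0.90 in L2/3, 0.87 in L6IT and 0.65 in L6CT on the log2 scale, of which L4 passed the quasi-likelihood test at an adjusted p of 0.0473. The calls in L4 and L5IT held with each library left out, those in L6b, L6CT and L6IT were lost without either DR GR-KO library (-1.29 to -0.58), and that in L2/3 without the DR GR-KO male (-0.61) or NR GR-KO female (-0.80). Over both genotypes the 6 were at -0.23 to -0.03 and none was called; DESeq2 did not call L6b (adjusted p = 0.937), and 1 fit of all 8 libraries called neither L6b nor L6CT. Interneuron marker sums in these types moved in part with them: L2/3 went from 41.6 to 46.3 CPM in NR GR-KO to 27.5 in both DR GR-KO libraries with 7 of 11 genes called lower, and L4 from 48.8 to 53.2 down to 33.1 to 40.1 with 6 of 11 lower. In L6IT and L6CT 4 of 11 were lower, while the sum in L6IT went from 63.6 to 68.9 up to 72.0 to 78.9 CPM with 1 gene higher, in L5IT 1 of 8 was lower and in L6b 0 of 3. Their part was not tested. These low Erbb4 counts too are not read as expression. Nrg3 fell in Astro (289 and 376 CPM to 194 and 209; -0.65 ± 0.17, edgeR adjusted p = 0.0069, quasi-likelihood 0.0291) and in Oligo (-0.69 ± 0.19; quasi-likelihood 0.0661), the latter not called with UMIs capped at 5 per nucleus (-0.31, edgeR adjusted p = 0.295). Both calls were lost without either DR GR-KO library or the NR GR-KO female (-0.73 to -0.44 in Astro, -0.69 to -0.45 in Oligo), and in 1 fit of all 8 libraries (edgeR adjusted p = 0.431 and 0.182). Over both genotypes the change was 0.15 in Astro and -0.0048 in Oligo (edgeR adjusted p = 0.932 and 0.997). The neuronal marker sums moved with these: in Astro they were 904 to 949 CPM in DR GR-KO against 1470 to 1583 in NR GR-KO, with 6 of 10 genes called lower, and in Oligo 536 to 537 against 940 to 1291, with 7 of 10 lower.

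VLMC gave 4 of the 18 calls from 20 and 47 nuclei in NR GR-KO and 53 and 65 in DR GR-KO, and 19.9% of all genes tested in VLMC were called in that comparison. Nrg3 was 2933 and 3985 CPM in NR and 487 and 824 in DR (log2 fold change -2.64 ± 0.44), Nrg1 2720 and 3167 against 149 and 914 (-2.68 ± 0.74), and Nrg2 105 and 80.8 against 40.6 and 3.34 (-2.44 ± 0.56). Egfr rose from 208 and 153 to 406 and 534 (1.16 ± 0.34). All 4 passed the quasi-likelihood test (quasi-likelihood adjusted p of 0.00369 to 0.0371). Egfr lost its call without either female (0.90 and 0.96) and Nrg2 without the DR GR-KO female (-1.45), which held 1 Nrg2 UMI. DESeq2 called neither Egfr (adjusted p = 0.076) nor Nrg1 (0.132). Neuronal marker genes in VLMC summed to 9494 to 12953 CPM in NR GR-KO and 1569 to 1836 in DR GR-KO, and 8 of the 8 tested were called lower. Few nuclei held these counts: over all libraries 14 of 360 VLMC nuclei held 50% of the Nrg3 UMIs and 11 held 50% of the Nrg1 UMIs. With each nucleus limited to 5 UMIs, Nrg3 was at -0.02 (edgeR adjusted p = 0.981) and Nrg1 at -0.60 (0.141), whereas Egfr was at 1.26 and remained called. Nuclei with 10 or more held 94.2% of the Nrg3 and 95.4% of the Nrg1 UMIs in VLMC. For these 2 genes the cap therefore cuts into most of the count and cannot judge the calls. Without nuclei that carried markers of other cells, Egfr was at 0.38 (edgeR adjusted p = 0.998) and Nrg3 at -1.91 (0.0525), while Nrg1 was at -3.28 and remained called.

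DR and NR were also compared over all 8 libraries with genotype as a term, an analysis added after the data were seen and made from the same libraries. Of all gene and type pairs 5.47% were called, and of the 76 member pairs 6 were called. This count lies near that share and is not a result about the members as a set. How many of all genes lay without overlap between rearings is not given. Nrg1 in L4 rose in DR by 0.41 ± 0.09 on the log2 scale (edgeR adjusted p = 0.000184, quasi-likelihood 0.0137). Its 4 NR libraries lay between 6282 and 6781 CPM and its 4 DR libraries between 8058 and 8715, so that the groups did not overlap. Nrg1 in OPC rose by 0.41 ± 0.10 (edgeR adjusted p = 0.00417, quasi-likelihood 0.00837), from 1039 to 1193 CPM in NR to 1361 to 1659 in DR. Nrg2 in Oligo rose by 0.61 ± 0.12 (edgeR adjusted p = 0.000168, quasi-likelihood 0.019), from 19.9 to 24.5 CPM in NR to 32.7 to 37.0 in DR. These 3 calls held in 10 of 10 alternatives, which were the quasi-likelihood test, DESeq2 and each library left out in turn. Erbb3 in Oligo fell by 0.49 ± 0.14 (edgeR adjusted p = 0.0196, quasi-likelihood 0.0758), from 72.4 to 100.3 CPM in NR to 53.4 to 67.4 in DR, and kept its call in 5 of 10, losing it without the DR GR-KO female, the NR GR-KO male or either NR GR-Con library (-0.49 to -0.38). Nrg1 in Oligo (0.74 ± 0.23) overlapped between rearings and kept its call in 2 of 10 (lost at 0.57 to 0.84 without any library but the DR GR-Con male and NR GR-KO female), and Erbb4 in L5PT was at -0.72 (edgeR adjusted p = 0.0151, quasi-likelihood 0.109) and kept its call in 4 of 10, losing it without the DR GR-KO male or any of the 4 GR-Con libraries (-0.76 to -0.61). In Pvalb, Erbb4 was at 0.04 (95% interval -0.10 to 0.18). The same fit for genotype, with rearing as a term, called 0.392% of all pairs and 1 of the 76 member pairs, Erbb4 in L5PT (-1.11 ± 0.20, edgeR adjusted p = 0.000115, quasi-likelihood 0.344), the value that rested on few nuclei.

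**Figure D5:**
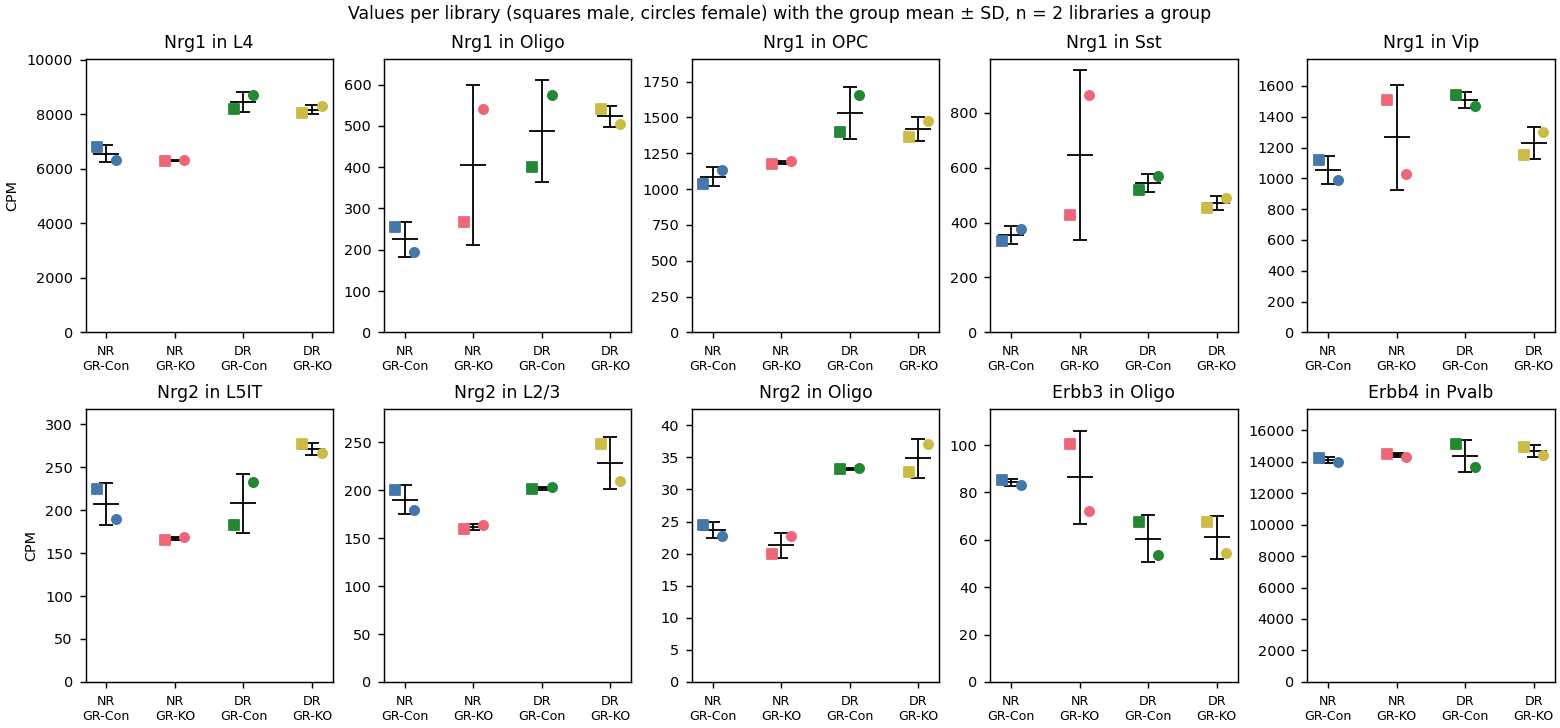
CPM in each library (squares male, circles female) with the group mean ± SD (n = 2 libraries a group) for the neuregulin values that differed by rearing, for Erbb3 in Oligo and for Erbb4 in Pvalb. In Nrg1 in L4, Nrg1 in OPC and Nrg2 in Oligo all 4 DR libraries lie above all 4 NR libraries, whereas Erbb4 in Pvalb stays between 13629 and 15098 CPM.

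Beyond the 7 members, 30 genes of the pathway had been listed by role, of which 29 were in the matrix (Ereg was not) and 27 were tested. Between genotypes in NR, 2 of 406 pairs were called, both lower, both in Astro and both by the quasi-likelihood test as well, against 0.804% of all pairs and 7.11% of the genes tested in Astro. The count of 2 lies below the share of all pairs and is not a result about the pathway. Pik3r1, the regulatory subunit of PI3 kinase, fell from 426 to 255 CPM (log2 fold change -0.80 ± 0.16, edgeR adjusted p = 3.85e-05, quasi-likelihood 0.00398). Errfi1, an inhibitor of ErbB kinases, fell from 26.3 to 17.9 CPM (-0.63 ± 0.18, edgeR adjusted p = 0.00986, quasi-likelihood 0.0477) and was not called by DESeq2 (adjusted p = 0.108). With sex as a term, edgeR also called a pair of EGF receptor ligands lower in Astro. Tgfa was at 32.7 CPM in NR GR-Con and 23.3 in NR GR-KO (log2 fold change -0.54, edgeR adjusted p = 0.000361, against 0.106 without the term). Egf was at 11.6 and 7.86 CPM (-0.63, edgeR adjusted p = 0.0167, against 0.0987). The share of all Astro genes called with that term is not given, so these calls are not read as a result about the pathway. In DR, 1 of 375 pairs was called, against 0.513% of all pairs, likewise not a result about the pathway. It was Lrig1, a negative regulator of ErbB receptors, in Sst (0.60, quasi-likelihood adjusted p = 0.205). With sex as a term edgeR also called Lrig1 in Astro (adjusted p = 0.0198, against 0.313 without the term), in the other direction. Lrig1 in Astro was at 267 CPM ± 185 in DR GR-Con and 111 ± 8.83 in DR GR-KO (log2 fold change -1.23 without the term). By rearing, in GR-Con 6 of 373 pairs were higher and 3 lower in DR, against 2.25% of all pairs called, and in GR-KO 11 of 422 were higher and 4 lower, against 3.66%. These shares lie near the background and are not a result about the pathway. Of the 15 calls in GR-KO, 6 were in VLMC, where 19.9% of genes were called, and the quasi-likelihood test made 3 of the 9 calls in GR-Con and 7 of the 15 in GR-KO. The adaptor Gab2 rose in L2/3 (0.88) and L5IT (0.82) in GR-Con and in Oligo (0.67) and VLMC (1.03) in GR-KO, each also by the quasi-likelihood test (quasi-likelihood adjusted p of 0.006 to 0.0346). Shc3, an adaptor gene, was highest in Astro (264 CPM), then OPC (204). It rose in L4 in both genotypes (1.04 and 0.84), in Sst in GR-Con (0.57) and in OPC in GR-KO (0.53), and fell in VLMC. Of these the quasi-likelihood test called OPC. The scaffold gene Erbin fell in L2/3 in both (-0.69 and -0.98), in L5PT in GR-Con and in L6IT in GR-KO, and rose in VLMC, of which the quasi-likelihood test called VLMC. The sheddases and processing enzymes Bace1, Adam10, Adam17 and Nrd1, which release neuregulins from the membrane, were called in no type by the likelihood ratio test in any of the 5 comparisons.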

How the data were processed

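Nuclei of V1 were collected by DRAQ5, and by absence of GFP according to the study's methods, and sequenced with a 10x Genomics 3′ kit (v4). The authors aligned with Cell Ranger 8.0.1 to mm10 with an added eGFP sequence, used Seurat 5.3.0, removed low-quality nuclei and doublets (DoubletFinder) and clusters without markers, and deposited raw UMI counts with a cell table of library, group and cell type. Here the deposited counts were summed per library and deposited cell type, and CPM was computed on that sum. Comparisons used edgeR 4.0.16 in R 4.3.3 (TMM, glmLRT as in the study's methods), on all genes of a type, with Benjamini-Hochberg adjustment within the type, and were tested on simulated data. SE is the log2 fold change over the root of the likelihood ratio. Quasi-likelihood and DESeq2 1.42.0 fits, other filters and each library left out were alternatives. Each group had 2 libraries, 1 per animal, so p-values rest on 2 against 2, or 4 against 4 where all 8 libraries entered. Counts include intronic reads, and free RNA adds UMIs to every nucleus. Genes named are the 7 members, up to 3 pathway genes per comparison (those called in the most types) with any called in NR astrocytes, and the 3 most alike per member; the members and lists were chosen with earlier results of these data known. Library names carry a sex but no replicate number.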

Additional observations from a re-analysis of the deposited data

Results flagged for a closer look

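For 6 gene and cell type pairs the difference between GR-KO and GR-Con itself differed between NR and DR, as tested by an interaction term in edgeR's likelihood ratio test over 8 libraries. Each value is the log2 difference in NR minus that in DR. In astrocytes it was 1.40 for Erbb4 (adjusted p = 0.00279), with 42.2 and 38.4 CPM in NR GR-Con, 127 and 91.9 in NR GR-KO, 98.1 and 75.8 in DR GR-Con and 79.8 and 88.1 in DR GR-KO. For Nrg3 in astrocytes it was 1.60 (edgeR adjusted p = 0.00693) and for Nrg3 in Oligo 1.36 (0.0456). The sum of 10 neuronal marker genes also differed between these libraries, at 821 to 971 CPM in NR GR-Con astrocytes, 1470 to 1583 in NR GR-KO, 858 to 1238 in DR GR-Con and 904 to 949 in DR GR-KO, and in Oligo at 465 to 537, 940 to 1291, 523 to 806 and 536 to 537 in the same order. Erbb4 in L5IT gave 2.39 (edgeR adjusted p = 0.00028), in L4 2.07 (0.00177) and in L2/3 1.54 (0.0208). The quasi-likelihood test called none of the 6. The low Erbb4 counts in the 3 excitatory types are not read as expression, and the part of free RNA in them was not tested. In the 5 libraries with enough microglia, Erbb4 in Astro was above Micro in 3 by CPM and in 5 per nucleus, and the part of free or neuronal RNA in the astrocyte and Oligo values was not tested.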

How the results depend on the processing

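Counts of called members changed with the settings. Genotype in NR, 8 calls, became 1 over both rearings, 2 by quasi-likelihood and 15 with sex as a term, and 6 to 13 with each library left out. Genotype in DR, 1 call, became 0 with UMIs capped at 5 per nucleus, 0 in 1 fit of all 8 libraries, 0 by quasi-likelihood, 3 without nuclei carrying other markers, 5 with sex as a term, and 0 to 7 with each library left out. Rearing in GR-Con, 6 calls, became 10 by DESeq2, 2 by quasi-likelihood and 2 to 13. Rearing in GR-KO, 18 calls, became 44 capped, 11 in 1 fit, 6 over both genotypes, 7 by quasi-likelihood and 7 to 21; without VLMC it was 14. The interaction, 6 calls, became 18 capped, 0 by quasi-likelihood and 2 to 9. Over 8 libraries, genotype (1 call) gave 0 by quasi-likelihood and 1 to 3, and rearing (6 calls) 3 and 3 to 7. The cap was set on the members alone and not on other genes. Nrg1 and Nrg3 hold 10 or more UMIs in most excitatory nuclei, so there their capped counts stay near the cap whatever their level. The capped counts of calls are therefore not read. Where no share of all pairs under a setting is given above, the counts are not a result about the members. The cause was not tested.

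The thinned Erbb4 share differed by genotype by 0.740 to 3.56 points and by rearing by -2.93 to 0.0263 with each library left out; the last, without the NR GR-KO female, turned its sign (exact permutation p = 0.914). Values that turned were Erbb4 in L5PT by genotype in NR (0.87 capped, 0.12 without nuclei carrying other markers) and by rearing in GR-Con (0.39 capped), Erbb4 in L5IT by genotype in DR (0.12 over both rearings) and by rearing in GR-Con (-0.11 over both genotypes), and Nrg3 in Astro by rearing in GR-KO (0.15 over both genotypes). Of 46 named values, 40 kept their call by DESeq2 and 13 by quasi-likelihood. Over 39 each, RLE size factors and sex as a term kept all 39, and no filter on low counts 38. By replicate number, no block could be built. No paired analysis was possible because the library names carry no replicate number. A block by sex could be: each group held 1 male and 1 female. The fit with sex as a term called 15 for genotype in NR, 5 in DR and 8 for the interaction. For rearing it called 7 in GR-Con and 23 in GR-KO. The share of all pairs called by that fit is not given, so these counts are not a result about the members.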
